A study of Mus musculus with 6 samples.

Results

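The cell cycle genes followed here were 38 genes of DNA replication and mitosis, chosen by symbol, among the 31053 genes of the feature lists. They comprised 20 mitotic genes (Mki67, Top2a, Cdk1, Ccna2, Ccnb1, Ccnb2, Birc5, Ube2c, Cenpa, Cenpe, Cenpf, Aurkb, Plk1, Nusap1, Tpx2, Prc1, Cdc20, Bub1, Kif11 and Kif20a) and 18 genes of S phase (Mcm2 to Mcm7, Pcna, Rrm1, Rrm2, Tyms, Tk1, Ccne1, Ccne2, Cdc6, Gins2, Uhrf1, Hmgb2 and Tubb5). A cell was taken as positive when it held UMIs (unique molecular identifiers, 1 per captured RNA molecule) of at least 2 of the 38, which 2550 of 4888 analysed cells did. All 38 genes were in the files and all 38 had UMIs in these cells.

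The mice (strain C57Bl/6J) carried the R26[CA]30EYFP allele, and their pancreatic cells were profiled by droplet single-cell RNA sequencing after separation into EYFP positive and EYFP negative fractions. In this reporter allele, as background, a repeat of CA dinucleotides keeps the yellow fluorescent protein EYFP out of frame until the repeat changes length while DNA is copied, so the label stands for a past event in a cell or its ancestors, not for a cell cycling when sampled. Runs 1 and 2 gave 1 library of each fraction from untreated mice in homeostasis, and run 3 gave 1 of each from animals with pancreatitis, taken 9 days after treatment with the secretagogue cerulein at 50 ug/kg in 7 injections a day on 2 days. Pancreatitis and run 3 cannot be told apart. The labels do not tie libraries to individual animals, and p-values therefore reflect only how far these 6 libraries spread.

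Before mitosis a cell copies its DNA, and genes that do so form 1 wave of expression: the Mcm proteins unwind the double helix, Pcna clamps the polymerase to DNA, and Rrm1, Rrm2, Tyms and Tk1 supply nucleotides. A later wave builds and controls the mitotic apparatus, with Cdk1 and its cyclins as the driving kinase, Top2a untangling chromosomes, Cenpe and Cenpf at the kinetochore, Birc5 and Aurkb in the chromosomal passenger complex, and Ube2c and Cdc20 working with the ligase that ends mitosis. Mki67 coats mitotic chromosomes and is the usual histological marker of proliferation. In the adult pancreas most acinar, ductal and endocrine cells are out of cycle, while acinar cells can re-enter it during repair after cerulein.

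The label of these samples names pancreatic cells, yet by marker genes 914 of the 4888 cells were acinar, ductal or endocrine-like. Of the others, 1789 were endothelial-like, 1012 B or plasma-like, 620 T or NK-like, 213 macrophage or monocyte-like, 170 fibroblast-like, 119 erythroid-like and 33 pericyte or smooth muscle-like, and 18 stayed unnamed. Median depth per cell ran from 2560 UMIs in EYFP negative run 2 to 7385.5 in EYFP positive run 3. Libraries of the same run shared cell barcodes: 97 pairs of analysed cells did so, 89 of them in the same class, against 4 pairs between runs. EYFP negative run 2 had 70 and EYFP positive run 2 had 68 such cells, of 1759 and 187. The fraction a shared barcode belonged to was therefore uncertain. Shares, counts and calls that turn on such cells are given with and without them, and levels in CPM with them only.

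The promoters of both groups of genes are shown first, because the groups differ in sequence and then in where their RNA was found. RefSeq sequences of build GRCm38.p6, from 250 bases before to 50 bases after a transcript start, were matched for 16 mitotic genes (17 promoters) and 15 S-phase genes (17 promoters). Capitals mark 3 motifs searched on both strands: TTTGAA, the core of the cell cycle homology element read by MuvB complexes, the CCAAT box bound by NF-Y, and an E2F motif (TTTGGCGC, TTTGCCGC, TTTCGCGC or TTTCCCGC), where matches may overlap and then run together. TTTGAA was in 70.6% of the mitotic promoters, 11.8% of the S-phase promoters and 17.9% of all 32851 promoters of that length. The CCAAT box was in 88.2%, 76.5% and 37.4%, and an E2F motif in 5.88%, 35.3% and 2.26%. The mitotic examples are Ccnb2 (chr9:70421505-70421804, minus strand), Cenpf (chr1:189688037-189688336, minus strand) and Top2a (chr11:99024140-99024439, minus strand), whose RNA fell in B or plasma-like cells below. The S-phase examples are Mcm5 (chr8:75109259-75109558, plus strand) and Mcm6 (chr1:128359656-128359955, minus strand), whose RNA was spread over many cells.
Ccnb2: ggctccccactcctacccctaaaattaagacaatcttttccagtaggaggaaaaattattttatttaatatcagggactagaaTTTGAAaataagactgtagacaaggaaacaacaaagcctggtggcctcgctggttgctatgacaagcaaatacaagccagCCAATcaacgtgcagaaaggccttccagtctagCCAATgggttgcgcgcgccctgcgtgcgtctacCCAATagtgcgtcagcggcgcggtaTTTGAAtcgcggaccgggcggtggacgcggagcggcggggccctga
Cenpf: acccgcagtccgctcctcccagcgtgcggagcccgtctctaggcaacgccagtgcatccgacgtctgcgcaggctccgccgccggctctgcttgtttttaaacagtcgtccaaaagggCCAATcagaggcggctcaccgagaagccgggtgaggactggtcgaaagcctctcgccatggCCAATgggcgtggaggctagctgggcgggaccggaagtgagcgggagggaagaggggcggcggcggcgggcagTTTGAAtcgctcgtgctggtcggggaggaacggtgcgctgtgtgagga
Top2a: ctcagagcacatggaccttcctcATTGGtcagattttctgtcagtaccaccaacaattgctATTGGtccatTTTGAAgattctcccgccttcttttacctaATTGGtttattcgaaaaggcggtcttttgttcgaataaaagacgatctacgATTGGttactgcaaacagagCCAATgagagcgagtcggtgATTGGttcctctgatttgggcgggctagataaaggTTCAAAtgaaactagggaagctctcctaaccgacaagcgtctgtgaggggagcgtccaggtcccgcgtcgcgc
Mcm5: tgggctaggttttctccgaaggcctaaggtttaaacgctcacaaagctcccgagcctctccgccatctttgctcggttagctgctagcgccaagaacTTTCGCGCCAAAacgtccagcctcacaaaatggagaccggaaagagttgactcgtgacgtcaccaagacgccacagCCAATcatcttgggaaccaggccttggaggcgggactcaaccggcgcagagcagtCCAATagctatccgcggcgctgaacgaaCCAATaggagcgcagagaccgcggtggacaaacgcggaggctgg
Mcm6: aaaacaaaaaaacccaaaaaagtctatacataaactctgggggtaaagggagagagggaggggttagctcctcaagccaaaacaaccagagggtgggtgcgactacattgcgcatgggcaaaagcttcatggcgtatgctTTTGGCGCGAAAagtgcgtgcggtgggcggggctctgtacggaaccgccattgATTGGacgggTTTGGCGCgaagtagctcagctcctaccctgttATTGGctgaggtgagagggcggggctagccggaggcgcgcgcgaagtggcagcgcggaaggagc
In these windows Ccnb2 and Top2a each held 2 TTTGAA motifs and no E2F motif, Cenpf held 1 and none, and Mcm5 and Mcm6 held 2 and 3 E2F motifs and no TTTGAA. A match is a description of letters only.

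Most cells that held UMIs of 2 of the 38 genes held 1 or both of the widely expressed Hmgb2 and Tubb5, and their share depended on depth. Without thinning, 52.2% of the analysed cells qualified, and of those 93.1% held Hmgb2, a chromatin protein, or Tubb5, a beta-tubulin, and 70% held no mitotic gene. Of the 2550 cells, 1296 held 2 or more of the other 36 genes and would have qualified without either. After every cell was thinned to 1000 UMIs, which left out 570 shallower cells, 504 of 4318 cells qualified, or 11.7% (exact 95% binomial interval 10.7 to 12.7%, counting error only). Of these 504, 84.5% held Hmgb2 or Tubb5, 74.6% held no mitotic gene, and 144 would have qualified without Hmgb2 and Tubb5.

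At equal depth the share of positive cells ran from 8.92% to 18.2% over the 6 libraries. It was 15.1%, 10.6% and 11.0% in EYFP negative runs 1, 2 and 3 and 12.5%, 18.2% and 8.92% in the positive runs. The fractions overlapped, with means of 12.2 ± 2.48% and 13.2 ± 4.70% (SD, n = 3 libraries each). The highest library, EYFP positive run 2, fell to 11.2% without shared barcodes, and the difference between fractions then changed sign, from 0.997 to -0.976 percentage points. The pancreatitis libraries, at 9.98 ± 1.5% (n = 2), overlapped with the homeostasis libraries, at 14.1 ± 3.32% (n = 4).

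By class the thinned share was highest in T or NK-like cells, at 20.3%, then 13.8% in B or plasma-like, 13% in endothelial-like, 11.2% in macrophage or monocyte-like and 8.62% in ductal-like cells. Fibroblast-like cells reached 5.63%, acinar-like cells 1.5% and erythroid-like cells 0.847%. Within T or NK-like cells the EYFP negative libraries gave 25.4%, 10.1% and 21.7% and the positive libraries 29.4%, 31.8% and 21.9%. All 3 positive values lay above 2 of the 3 negative values and the groups overlapped. With all cells the positive library was the higher within each of the 3 runs, by little in run 3. Without shared barcodes the negative libraries gave 24.2%, 9.38% and 21.4% and the positive libraries 27.3%, 42.9% and 19.4%. In run 3 the positive library was then the lower, and 7 of 22 cells of EYFP positive run 2 remained. In B or plasma-like cells the negative libraries gave 12.4%, 14.1% and 14.0% and the positive libraries 6.90%, 20% and 13.9%, and in endothelial-like cells 16.3%, 11.3% and 13.6% against 14.3%, 6.90% and 15.4%. In both classes the positive libraries spread around the negative ones, and the sign differed between runs.

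**Figure D1:**
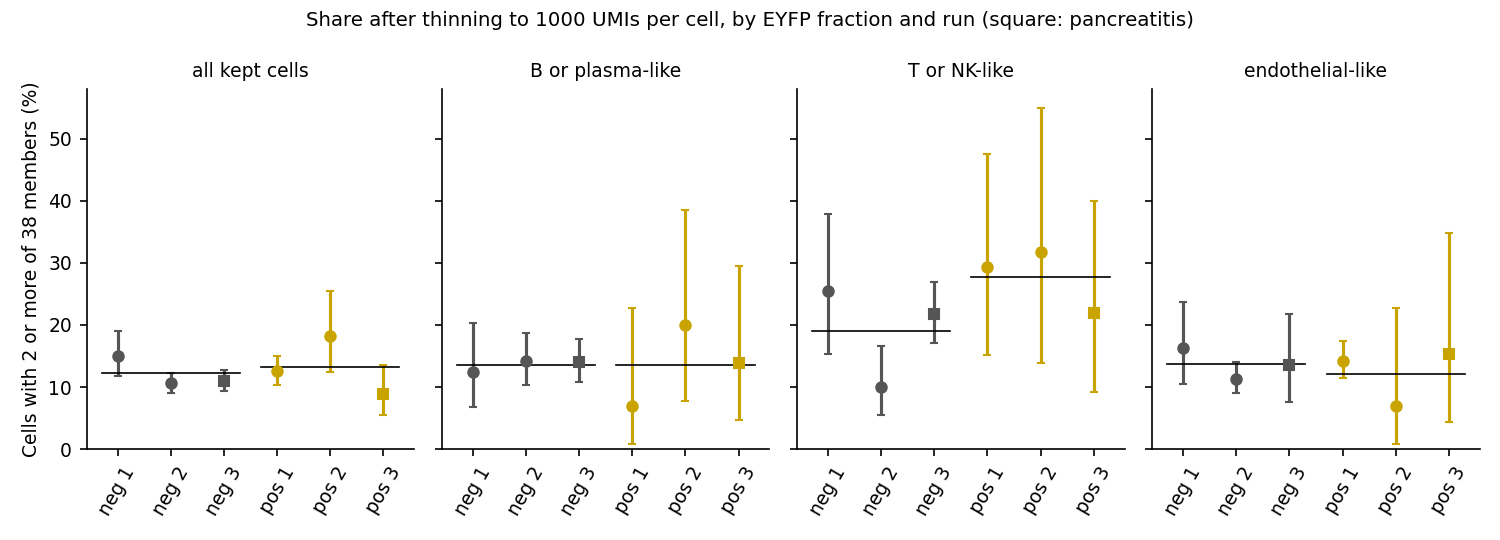
Percent of cells with UMIs of 2 or more of the 38 genes after thinning to 1000 UMIs per cell, for each library (neg, EYFP negative; pos, EYFP positive; number, run; squares, pancreatitis), over all cells and in 3 classes, with exact 95% binomial intervals and the mean of each fraction as a line. Over all cells the libraries lie between 8.92% and 18.2% and the fractions overlap.

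The mitotic genes had another distribution: most of their RNA was in 18 cells. Of the 4888 cells, 4026 held none of the 20 mitotic genes, 687 held 1, 129 held 2 and 28 held 3 to 6. No cell held 7 or 8, and 18 cells held 9 to 20 of them. Those 18 cells, 0.368% of all (exact 95% interval 0.218 to 0.581%), contained 3146 of the 4615 mitotic UMIs, or 68.2%. The limit of 9 genes was set at the gap after these counts were seen, so the figures that follow describe the cells and are no test.

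**Figure D2:**
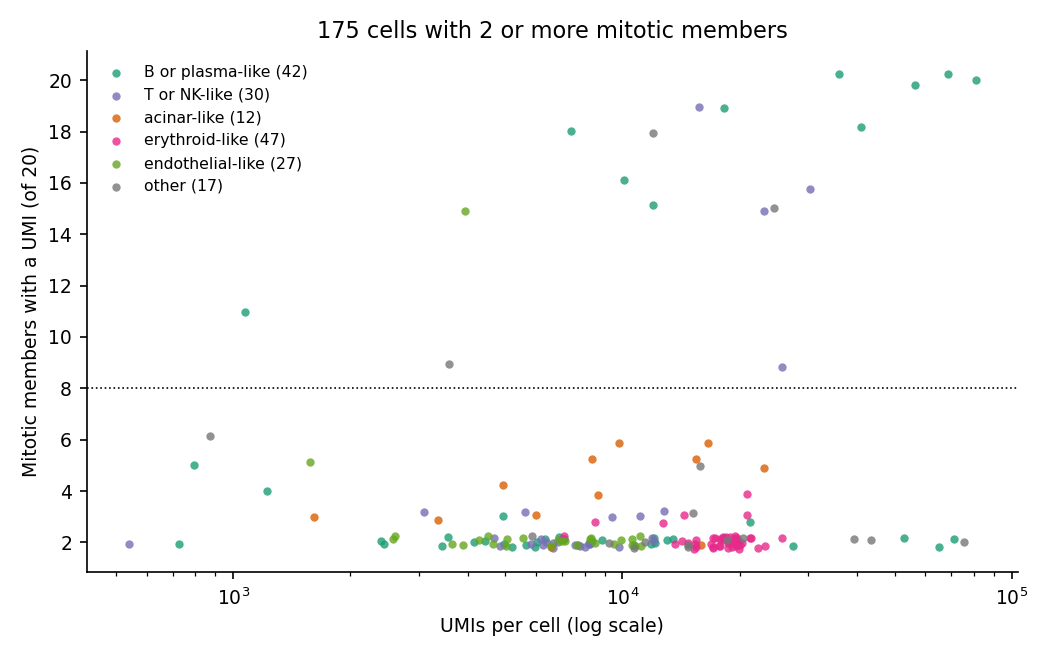
Number of the 20 mitotic genes with a UMI against UMIs per cell (log scale) for the 175 cells with 2 or more, coloured by class, with points shifted slightly in height; the dotted line lies in the gap between 6 and 9 genes. The 18 cells above it lie between 1074 and 80846 UMIs, and erythroid-like cells crowd at 2 genes near 16870 UMIs.

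Each mitotic gene followed this pattern to its own degree. All 26 UMIs of Bub1, a spindle checkpoint kinase, were in the 18 cells. So were 95.9% of 244 for Cenpf, 92.7% of 137 for Ccnb2, 89.8% of 284 for Birc5, 87.1% of 394 for Mki67, 85.9% of 142 for Ccnb1 and 77.8% of 397 for Top2a. The cells held 63.0% of 211 Cdk1 UMIs. At the other end stood Ube2c with 54.9% of 681, Nusap1, a spindle protein, with 46.5% of 288, and Cenpa, the centromeric histone, with 24.2% of 690. Cenpa and Nusap1 were thus the only 2 of the 20 with more UMIs outside the 18 cells than inside.

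The S-phase genes were spread more widely, with 17.9% of their 17958 UMIs in the same cells. 3 members had most of their UMIs there: Rrm2, the regulated subunit of ribonucleotide reductase (78.3% of 184), the replication licensing factor Cdc6 (59.1% of 22) and Uhrf1, which maintains DNA methylation (54.7% of 75). The other 15 ran from 7.77% for Mcm4 (of 412) to 41.0% for Ccne2 (of 39). In between lay Pcna with 9.09% of 1144, Tubb5 with 9.06% of 7695, Mcm3 with 11.1% of 605, Mcm6 with 12.1% of 737, Mcm7 with 14.6% of 542, Rrm1 with 17.0% of 465, Mcm5 with 28.6% of 276 and Hmgb2 with 32.9% of 4844.

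**Figure D3:**
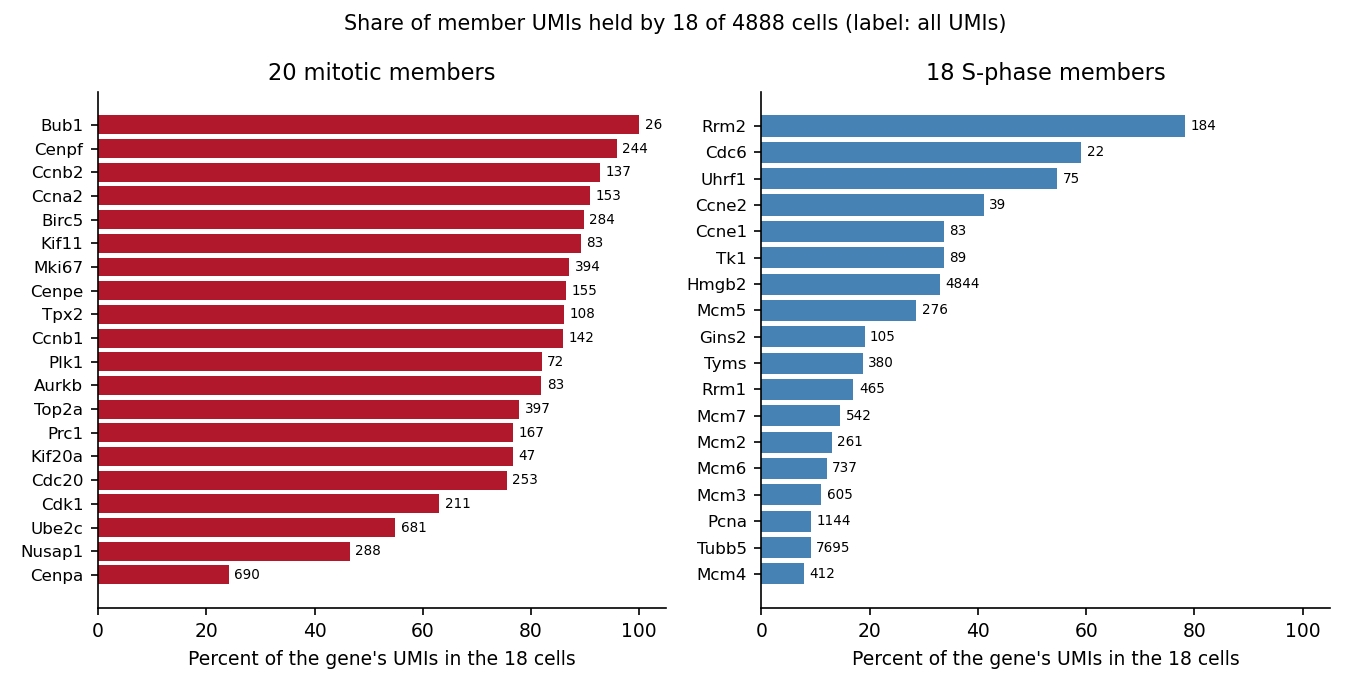
Percent of each gene's UMIs that lay in the 18 cells with 9 or more mitotic genes, for the 20 mitotic (left) and 18 S-phase genes (right); numbers beside the bars give all UMIs of the gene. Mitotic genes run from 24.2% (Cenpa) to 100% (Bub1), and S-phase genes from 7.77% (Mcm4) to 78.3% (Rrm2).

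The 18 cells were mostly lymphocytes. There were 10 B or plasma-like, 4 T or NK-like and 2 macrophage or monocyte-like cells, 1 endothelial-like cell and 1 cell in the endocrine-named cluster. The 2 macrophage or monocyte-like cells held 1 and 10 UMIs of Lyz2, 41 and 315 of H2-Ab1, and 4 and 2 of the dendritic marker Flt3. Their class, taken from the cluster, is therefore uncertain. By library 2 of 436, 10 of 1759 and 0 of 1440 cells of EYFP negative runs 1, 2 and 3 were among them, the last allowing a share of up to 0.208%. The positive runs had 4 of 832, 1 of 187 and 1 of 234. The fractions overlapped, at 0.459%, 0.569% and 0% in the negative and 0.481%, 0.535% and 0.427% in the positive runs.

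Depth and shared barcodes went with these cells in part. Their median was 20652.5 UMIs (1074 to 80846) against 4537.5 in the other cells, and 15 of the 18 were deeper than the median of their class and library. After thinning to 1000 UMIs, 16 of the 18 still held 2 or more mitotic genes, compared with 8 of 4300 other cells (0.186%). Of the 18, 9 had a barcode that also occurred in another library, and the 18 were 17 barcodes when each was counted once per run. A B or plasma-like cell of EYFP negative run 1 with 35947 UMIs and all 20 mitotic genes shared its barcode with one of EYFP positive run 1 with 1074 UMIs and 11. Without shared barcodes 1, 6 and 0 cells remained in EYFP negative runs 1, 2 and 3 and 2, 0 and 0 in the positive runs, so EYFP positive runs 2 and 3 had none.

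The cell in the endocrine-named cluster did not carry that identity. It held 11957 UMIs and 18 mitotic genes but no UMI of Ins1, Ins2, Gcg, Sst or Chga, and instead 49 of Krt8, 36 of Krt19 and 21 of Epcam, epithelial genes of the duct. Of Spp1, the leading gene of both ductal-like clusters, it held 1 UMI. It had 0 UMIs of the leukocyte gene Ptprc and 0 of the 16 S-phase genes other than Hmgb2 and Tubb5. Its barcode recurred in EYFP negative run 2 as a ductal-like cell of 870 UMIs with 6 mitotic genes. No other acinar, ductal or endocrine-like cell of the 914 held more than 6.

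The 18 cells differed in how many S-phase genes they held. Of these, 8 held 10 or more of the 16 S-phase genes other than Hmgb2 and Tubb5, and 10 held 6 or fewer. Depth went with this difference: the 8 cells had 23066 to 80846 UMIs (median 38458.5) and the 10 had 1074 to 24446 (median 11018.5), and 1 of the 10 was deeper than the shallowest of the 8. The part of depth in it was not tested. Among the rest of the cells only 2 reached 10 of 16 and 8 reached 8. Of the 3 T or NK-like cells from EYFP positive libraries, 2 from run 1 held 16 of 16 with 15 and 16 mitotic genes, and 1 from run 3 held 14 with 9 mitotic genes. The T or NK-like cell of EYFP negative run 2 held 6 of 16 with 19 mitotic genes. All 18 cells had UMIs of Mki67, and 17 of Top2a.

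Removing the 18 cells brought the libraries closer in mitotic RNA. The summed CPM (UMIs per 1000000 UMIs of the library) of the 20 mitotic genes were 246, 373 and 69.7 in EYFP negative runs 1, 2 and 3 and 85.0, 133 and 56.1 in the positive runs. Without the 18 cells they were 46.1, 50.6 and 69.7, and 36.5, 55.1 and 39.2, so that EYFP negative run 3, among the 2 lowest before, was then the highest. In that library 317 of the 674 mitotic UMIs lay in 99 erythroid-like cells. Without erythroid-like cells as well, the sums were 36.5, 47.9 and 44.3 CPM in the negative and 36.5, 55.3 and 33.4 CPM in the positive runs, and EYFP negative run 3 lay inside the range of the others. The 16 S-phase genes other than Hmgb2 and Tubb5 summed to 208, 247 and 130 CPM in the negative and 244, 198 and 155 CPM in the positive runs, and to 199, 176 and 130 and 197, 200 and 124 without those cells. For these genes the pancreatitis libraries were the lowest 2 of 6 either way. Acinar-like and erythroid-like cells held 46.6% and 38.8% of all UMIs in the negative and positive libraries of run 3, beside 3.58 to 7.95% in homeostasis. Outside those classes the sums were 216, 256 and 228 CPM in the negative and 257, 207 and 245 CPM in the positive runs, with both pancreatitis libraries inside the homeostasis range. Without the 18 cells too they were 206, 182 and 228, and 208, 210 and 196 CPM, and EYFP negative run 3 was the highest.

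Levels by class were taken as CPM per library with at least 10 cells of that class. Mki67 stood at 33.5 ± 43.4 CPM in B or plasma-like and 32.1 ± 37.9 CPM in T or NK-like cells (SD, n = 6), at 7.05 ± 10.9 in macrophage or monocyte-like (n = 5), 2.13 ± 3.43 in endothelial-like and 1.31 ± 1.48 in ductal-like cells (n = 6), and at 0.07 ± 0.15 in acinar-like cells (n = 5). No UMI was found in 170 fibroblast-like cells, which allows up to 1.76% of them to hold one. Without the 18 cells the B or plasma-like level was 4.47 ± 5.63 and the T or NK-like level 6.17 ± 5.59 CPM. The spread between libraries exceeded the differences between neighbouring classes in both versions. Top2a had its highest mean in T or NK-like cells, with 58.9 ± 76.2 CPM there and 30.8 ± 33.6 in B or plasma-like cells, and 12.1 ± 10.1 and 7.23 ± 5.59 CPM without the 18 cells.

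Pcna and Mcm6 differed less between classes. Pcna averaged 86.7 ± 43.9 CPM in T or NK-like, 56.1 ± 22.0 in macrophage or monocyte-like, 46.8 ± 23.0 in B or plasma-like, 44.8 ± 10.5 in endothelial-like and 39.6 ± 11.6 in ductal-like cells, and 4.49 ± 5.44 in acinar-like cells. Mcm6, a helicase subunit, averaged 84.6 ± 75.1, 22.6 ± 17.2, 28.0 ± 8.78, 31.9 ± 3.43, 28.3 ± 6.77 and 5.43 ± 11.8 CPM in the same classes. Mcm5 averaged 30.9 ± 27.7 in T or NK-like, 14.6 ± 12.1 in B or plasma-like, 8.31 ± 4.29 in endothelial-like and 4.53 ± 2.91 in ductal-like cells. For each of the 3, T or NK-like cells had the highest mean of these classes, and apart from acinar-like cells the neighbours behind them differed by less than their spread. Without the 18 cells the T or NK-like means were 65.9 ± 17.3 CPM for Pcna, 67.9 ± 38 for Mcm6 and 14.0 ± 12.3 for Mcm5, and the B or plasma-like means 41.9 ± 20.4, 23.8 ± 6.10 and 9.72 ± 7.72 CPM.

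Tubb5 and Hmgb2, at least 1 of which most positive cells held, had the most UMIs of the 38 genes. Tubb5 averaged 523 ± 194 CPM in T or NK-like, 415 ± 63.5 in endothelial-like, 343 ± 83.3 in B or plasma-like and 196 ± 46.1 in ductal-like cells, against 37.2 ± 11.2 in acinar-like cells. Hmgb2 averaged 444 ± 284, 110 ± 13.2, 257 ± 172 and 149 ± 37.1, against 17.5 ± 27.3. Secretory enzymes fill the RNA of acinar cells, so a CPM there is a share of a different total; whether that moved these values was not tested. In endothelial-like cells single mitotic genes occurred without partners: Cdk1 was in 48 cells, 35 of which held no other mitotic gene, and Cenpa was in 173, 150 of which held no other.

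In B or plasma-like cells the mitotic genes were lower in the pancreatitis libraries than in homeostasis. Of the 23 members that passed the low-count filter, 14 fell (edgeR quasi-likelihood test with Benjamini-Hochberg adjustment over 6494 genes, adjusted p under 0.05) and none rose, where 1.65% of all genes tested fell and 0.4% rose. The 14 were Birc5, Ccna2, Ccnb2, Cdc20, Cdk1, Cenpe, Cenpf, Hmgb2, Kif11, Mki67, Nusap1, Prc1, Top2a and Ube2c. The other 15 of the 38 did not pass the filter, and several of the 23 passed through the homeostasis libraries alone. Genes that passed that way could only fall. The count of 14 and the median below therefore describe these libraries and do not test the members as a set. The median log2 fold change over the 23 was -4.48, or -3.98 with the 4 genes that had no UMI in pancreatitis set at a floor of 3 UMIs, beside -0.02 over all genes.

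Mki67 stood at 73.2 and 102 CPM in EYFP negative runs 1 and 2 and at 9.71 and 14.1 in EYFP positive runs 1 and 2, against 1.32 and 0 in the negative and positive libraries of run 3. The 4 homeostasis libraries all lay above both pancreatitis libraries, and the EYFP negative ones highest (log2 fold change -6.18 ± 0.53 SE, edgeR adjusted p = 7.62e-06). In EYFP positive runs 1, 2 and 3 the class held only 205927, 141556 and 292688 UMIs. Values there rested on few Mki67 UMIs. In EYFP positive run 1 there were 2, both in a single cell with a shared barcode. Without that cell this library stood at 0, as did EYFP positive run 3, and the conditions were then not fully apart. Whether the positive libraries differed beyond counting error was not tested. EYFP negative runs 1 and 2 held 72 and 180 Mki67 UMIs, of which 69 and 168 were in B or plasma-like cells with 9 or more mitotic genes. Top2a stood at 63.0, 83.1 and 6.15 CPM in the negative and 4.86, 14.1 and 13.7 CPM in the positive runs, so that the conditions overlapped (-3.23 ± 0.56 SE, edgeR adjusted p = 0.00359).

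Cenpf stood at 56.9 and 64.9 CPM in EYFP negative runs 1 and 2 and at 9.71 in EYFP positive run 1, and was at 0 in the other 3 libraries. Both pancreatitis libraries were thus at 0, as was EYFP positive run 2 (edgeR adjusted p = 4.62e-05). All 172 homeostasis UMIs of Cenpf lay in 10 cells, so no bound on a fold is given. Those of EYFP positive run 1 lay in the single cell with a shared barcode that also held its Mki67 UMIs. Ccna2, Ccnb2 and Kif11, a spindle motor, were also at 0 in run 3, against 111, 108 and 57 UMIs in 11, 12 and 9 cells of homeostasis. Ube2c stood at 46.8, 149 and 0.439 CPM in the negative and 9.71, 7.06 and 0 CPM in the positive runs. Both of its pancreatitis libraries lay below all 4 homeostasis libraries (-7.64 ± 0.86 SE, edgeR adjusted p = 0.00014). Over the cells of every class Ube2c had 6 and 3 UMIs in EYFP positive runs 1 and 2. All 6 lay in cells with 9 or more mitotic genes, of which the B or plasma-like one was the same cell with a shared barcode. The gap between the positive libraries thus rested on few UMIs, and whether it exceeds counting error was not tested.

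Hmgb2 was the 1 gene of the S-phase list among the 14, at 337, 554 and 138 CPM in the negative and 146, 276 and 92.2 CPM in the positive runs, without overlap between conditions (-1.68 ± 0.31 SE, edgeR adjusted p = 0.00631). Its promoter held 2 TTTGAA motifs and 0 E2F motifs. Of the 14, Birc5, Cenpe and Nusap1 held 0 TTTGAA motifs, and the others with a matched promoter held 1 or 2. Whether a motif went with the fall was not tested. The replication genes did not pass the test. Pcna stood at 32.5, 68.9 and 50.9 CPM in the negative and 9.71, 70.6 and 47.8 CPM in the positive runs, with both pancreatitis libraries inside the homeostasis range (-0.14 ± 0.38 SE, edgeR adjusted p = 0.982). Log2 fold changes were -0.04 ± 0.42 SE for Mcm4, -0.46 ± 0.58 for Mcm5, -0.94 ± 0.36 for Mcm6 and -0.25 ± 0.26 for Tubb5, with edgeR adjusted p-values of 1, 0.89, 0.297 and 0.856. In all, 6 of the 23 members did not overlap between conditions, beside 21.6% of all genes.

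**Figure D4:**
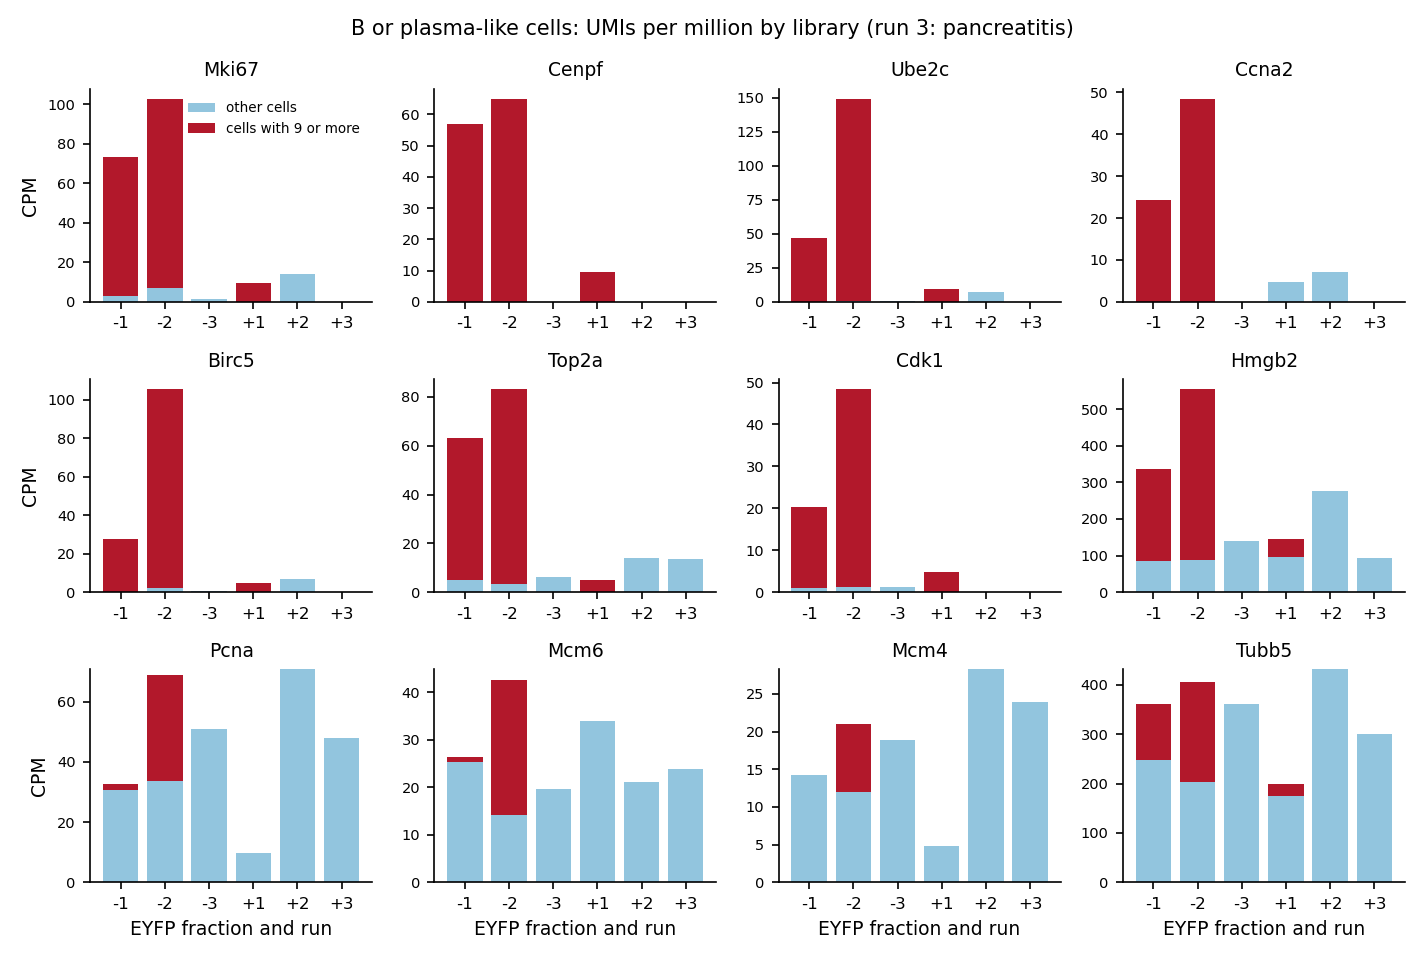
CPM of 12 members in B or plasma-like cells for each library (-1 to -3, EYFP negative runs; +1 to +3, EYFP positive runs; run 3, pancreatitis), with the part from cells with 9 or more mitotic genes in red. The tall bars of Mki67, Cenpf, Ube2c, Ccna2, Birc5, Top2a and Cdk1 in EYFP negative runs 1 and 2 are nearly all red, while Pcna, Mcm4 and Tubb5 are mostly blue.

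The fall in B or plasma-like cells rested on few cells. Of the homeostasis libraries, EYFP negative runs 1 and 2 had 2 of 109 and 7 of 367 cells with 9 or more mitotic genes, and EYFP positive runs 1 and 2 had 1 of 36 and 0 of 43. The pancreatitis libraries had 0 of 420 and 0 of 37, or 0 of 457 in all, which allows 0.656%. Without such cells 9 members passed the filter, none was called (0 at an unadjusted p under 0.05) and the median log2 fold change was -0.03. Without shared barcodes 2 of 12 members were called, Cenpe and Mki67. DESeq2 called 10. Without EYFP negative run 1, run 2 or run 3 in turn, 1 (Hmgb2), 0 and 0 members were called, with 4, 4 and 24 tested.

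Other genes of the same processes, taken from lists of related genes, were read from the same sums of the same cells. Those that passed the low-count filter through the homeostasis libraries alone could only fall. Their counts therefore describe these libraries and are no separate test. Of all genes tested, 1.65% fell and 0.4% rose. Of 19 other mitotic genes tested, 8 fell and none rose, with a median log2 fold change of -1.45. They included Cdca3 (-5.30, edgeR adjusted p = 0.00106), Cdca8, a partner of Birc5 (-3.82), and Racgap1, which acts in cytokinesis (-3.77), and Hmmr, a spindle protein, was at 0 CPM in both pancreatitis libraries against a mean of 14.4 CPM. Of 17 other replication genes 1 fell, Pclaf, a Pcna-binding factor (-6.45, edgeR adjusted p = 0.000186), and the median of the 17 was -0.17. Of 15 chromatin and tubulin genes 2 fell, the replication-dependent histones Hist1h1b (-3.78) and Hist1h2ap (-3.28). None of 7 cyclins and kinases of G1, 6 E2F, Myb and MuvB regulators or 2 CDK inhibitors was called, with 2, 1 and 0 at an unadjusted p under 0.05 by edgeR.

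Between EYFP fractions no member was called in B or plasma-like cells, where 0% of all genes were. All 23 fitted log2 fold changes were negative, with a median of -1.88 (-1.53 with Kif11, at 0 in the positive libraries, at its floor) beside 0.00 over all genes. An unadjusted p under 0.05 by edgeR was found for 15 of 23, not set against the share of all genes. Only 9 passed the low-count filter without cells holding 9 or more mitotic genes, and most of those cells were EYFP negative. Genes that passed through negative libraries alone could only be lower, so sign, median and count do not test the members as a set. The lowest adjusted p was that of Mki67 (-2.99 ± 0.53 SE, edgeR adjusted p = 0.114), whose 2 high libraries were both EYFP negative. With run as a block in place of condition, Birc5, Mki67 and Ube2c were called. DESeq2 called 0. Without cells holding 9 or more mitotic genes the median was -0.05 and 0 of 9 members had an unadjusted p under 0.05.

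T or NK-like cells had the opposite sign, again with no member called (0 of 14 tested, where 0.0396% of all genes were called). All 14 log2 fold changes were positive, with a median of 1.02, and 6 had an unadjusted p under 0.05 by edgeR and 4 by DESeq2, which called 0. Those counts were not set against the share of all genes. Only 6 members passed the low-count filter without cells holding 9 or more mitotic genes, and most such cells of this class were in positive libraries. The signs, median and counts therefore describe these libraries and do not test the members as a set. Mcm6 stood at 54.4, 38.5 and 49.3 CPM in EYFP negative runs 1, 2 and 3 and at 236, 55.1 and 74.0 CPM in the positive runs. Every positive library lay above every negative one, the nearest by less than 1 CPM (1.27 ± 0.38 SE, edgeR adjusted p = 0.642). That nearest library, EYFP positive run 2, had 22 cells and 145060 UMIs of the class. Only 7 of those cells remained without shared barcodes, so the gap is uncertain. Mcm3 also did not overlap, so 2 of 14 members did not, beside 9.1% of all genes. Without cells holding 9 or more mitotic genes Mcm6 still did not overlap, while Mcm3 stood at 42.6, 18.2 and 29.1 against 14.3, 48.3 and 24.5 CPM and did. Pcna stood at 85.1, 37.0 and 62.0 against 164, 68.9 and 104 CPM, with positive run 2 below negative run 1 and the positive library higher within each run (0.88 ± 0.31 SE, edgeR adjusted p = 0.787). Without those cells Pcna stood at 85.1, 34.9 and 62.0 against 67.0, 68.9 and 77.7 CPM, and the positive library was higher in runs 2 and 3 only.

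Top2a varied most within this class, from 9.46, 43.0 and 10.4 CPM in the negative to 198, 0 and 92.5 CPM in the positive runs. The 2 high libraries held the 3 cells of EYFP positive runs with 9 or more mitotic genes, with 47 of 52 and 19 of 25 of their Top2a UMIs. Without such cells 6 members passed the filter, 3 with a positive sign, with a median of 0.11. Without EYFP positive run 1 the median was 0.30. In the pancreatitis contrast 0 of 14 members were called, where 0.495% of all genes were, with 1 at an unadjusted p under 0.05 (Tubb5, -0.80 ± 0.26 SE, edgeR adjusted p = 0.379). Whether the EYFP difference itself differed between B and T or NK-like cells was not tested.

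Endothelial-like and ductal-like cells showed no called member in either contrast. In endothelial-like cells 0 of 10 members were called by EYFP and by pancreatitis, where 0.0702% and 0.0561% of all genes were, and none had an unadjusted p under 0.05 by edgeR. Tubb5 there stood at 400, 339 and 388 CPM in the negative and 384, 514 and 466 CPM in the positive runs, with overlap (0.25 ± 0.23 SE, edgeR adjusted p = 1). Pcna stood at 50.5, 47.7 and 24.7 against 51.1, 42.2 and 52.5 CPM, with EYFP negative run 3, at 10 UMIs, as the low value. In ductal-like cells 0 of 6 members were called by EYFP and by pancreatitis, where 0.0881% and 0.426% of all genes were, and none had an unadjusted p under 0.05 by edgeR. Pcna stood at 46.5, 40.9 and 20.2 against 46.9, 31.9 and 51.0 CPM, again lowest in EYFP negative run 3, where 11 ductal-like cells gave 2 UMIs. Of the related genes, Gmnn, an inhibitor of replication licensing, fell with pancreatitis in ductal-like cells (-1.48 ± 0.33 SE, edgeR adjusted p = 0.0461).

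Acinar-like cells held few UMIs of the members: none of the 38 passed the low-count filter in the acinar fits, in which 0% and 16.5% of 819 genes were called by EYFP and by pancreatitis. Of the mitotic genes, 2 or more were held by 12 of 560 acinar-like cells. Of these 12, 11 were among 451 cells of the pancreatitis libraries and 1 was among 109 cells of homeostasis. By library there were 0 of 8, 1 of 25 and 8 of 360 in EYFP negative runs 1, 2 and 3, and 0 of 40, 0 of 36 and 3 of 91 in the positive runs. Most of the 11 thus came from 1 library, and the conditions were not tested against each other. Depth differed, with median UMIs of 6482 in pancreatitis and 2876 in homeostasis. Among cells with at least 3000 UMIs the counts were 11 of 373 and 0 of 52, the latter allowing 5.77%.

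These 12 acinar-like cells held 2 to 6 mitotic genes, fewer than the lymphocytes above. Of the 12, 11 had Ube2c, 9 Birc5, 11 Tubb5, 4 Top2a and 1 Mki67. None had a shared barcode. Ube2c gave 24 UMIs in 11 of 360 acinar-like cells of EYFP negative run 3 and 11 UMIs in 5 of 91 of EYFP positive run 3, and 0 in the 4 homeostasis libraries. In EYFP negative run 3 it was in 1 of 420 B or plasma-like, 1 of 300 T or NK-like and 0 of 152 endothelial-like cells. Haemoglobin made up at most 0.386% of the UMIs of the 12 cells, with a median of 0.0977% beside 0.103% in other acinar-like cells of run 3, and Birc5 had 17 UMIs in acinar-like and 0 in erythroid-like cells. Whether RNA of other cells contributed to these counts was not tested.

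Erythroid-like cells were another class in which mitotic genes appeared without their partners. Of 119 such cells, 70 held Ube2c (251 UMIs), 53 held Nusap1 (115 UMIs) and 41 held both. The other 18 mitotic genes together gave 18 UMIs in 13 cells, with 2 UMIs each of Mki67 and Top2a. Unthinned, 47 of the 119 held 2 or more mitotic genes, and after thinning to 1000 UMIs 0 of 118 did, which allows 2.54%. These cells were deep, with a median of 16870 UMIs of which 95.1% were haemoglobin, and 99 of the 119 came from EYFP negative run 3.

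B or plasma-like cells with 2 or more mitotic genes were then compared with the other cells of that class in genes that were no members. In all, 4 libraries had at least 5 such cells, namely 5, 19 and 10 cells in the negative runs 1, 2 and 3, with 5 cells in EYFP positive run 2. With library as a block, 142 of 4580 genes were called, 84 higher (1.83%) and 58 lower (1.27%), and the median of all was -0.08. The cells were chosen by mitotic genes in these same counts. Higher levels of other cell cycle genes therefore describe the chosen cells and are no separate test. Other mitotic genes were higher in 24 of 31 cases with a median log2 fold change of 4.02. Among them Hmmr was higher by 7.53 ± 0.74 SE (edgeR adjusted p = 2.1e-06), Cdca8 by 5.46 ± 0.61, Cdca3 by 6.75 ± 0.76 and Cks2, a Cdk1-binding subunit, by 4.24 ± 0.58.

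Replication and chromatin genes were higher to a lesser extent. Of 19 other replication genes 7 were called, all higher, with a median of 1.59. Pclaf averaged 203 CPM in the cells with 2 or more mitotic genes and 0.183 CPM in the others (8.96 ± 0.66 SE, edgeR adjusted p = 1.76e-08), and was higher in 4 of 4 libraries. Gmnn was higher by 2.87 ± 0.48, Dut, which clears dUTP, by 2.26 ± 0.43 and the histone chaperone Asf1b by 3.37 ± 0.70. Of 15 chromatin and tubulin genes 5 were higher, with a median of 1.48, among them Hist1h1b (4.14 ± 0.65) and Tuba1c (2.35 ± 0.51). None of 6 G1 cyclins and kinases, 6 E2F, Myb and MuvB regulators or 3 CDK inhibitors was called, with medians of 0.62, 0.73 and 0.55 and with 1, 3 and 1 genes at an unadjusted p under 0.05 by edgeR.

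**Figure D5:**
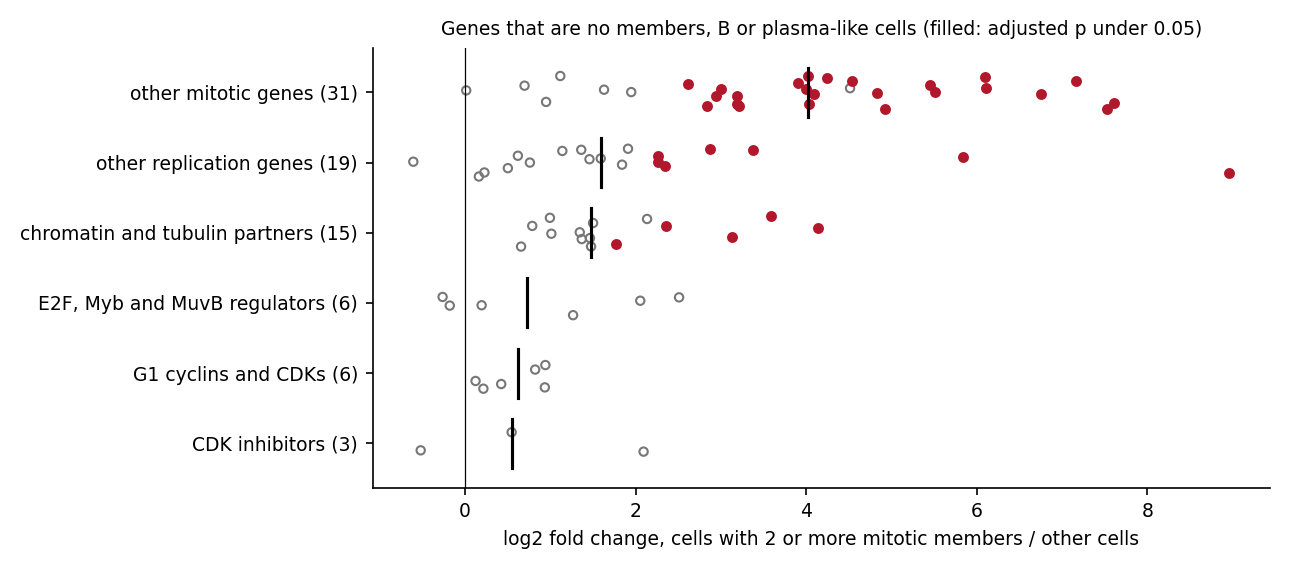
Log2 fold change between B or plasma-like cells with 2 or more mitotic genes and other cells of the class, for genes of 6 lists that hold no member (number tested in brackets; filled, edgeR adjusted p under 0.05; bar, median of the list; points shifted slightly in height). Other mitotic genes have a median of 4.02, replication genes of 1.59 and CDK inhibitors of 0.55.

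Depth and the same few cells went with this result. In EYFP negative run 1 the median was 35947 UMIs in the chosen and 5859 in the other cells, in run 2 it was 11828 and 2842.5, in run 3 6603.5 and 5315.5, and in EYFP positive run 2 3430 and 3705. Of the 39 chosen cells 9 held 9 or more mitotic genes. Without those 9 cells 1 gene was called, without shared barcodes 8 and without the library block 4.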

How the data were processed

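The deposited files hold UMI counts, not normalized, for each gene in each barcode of 6 libraries, as whole numbers per the file headers. According to the submitters' processing notes, Cell Ranger 2.1.0 and build GRCh38 were used by the authors. The headers instead give software 3.1.0 and mouse gene identifiers, and no mouse build is named in the sources used here. The 38 genes and the related lists were chosen with earlier results of these data known.

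Cells needed 200 genes or more and no more than 20% mitochondrial UMIs, and Scrublet doublets (2, 6 and 26 in EYFP negative runs, 3, 0 and 4 in positive ones) were dropped in Scanpy 1.11.5, so that 4888 of 8582 barcodes were analysed. Total counts ran from 1044718 to 23658431 UMIs per library. With 2000 variable genes, 30 components, 15 neighbours and Leiden resolution 1, clusters took the class of their fixed markers. After names were seen, the pseudocount for leading genes was changed from 0.1 to 1 and clusters with at least 3 leading markers of another class stayed unnamed. Python 3.11.15, SciPy 1.17.1 and NumPy 2.4.6 were used.

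Sums of UMIs per library and class were fitted in R 4.3.3 with edgeR 4.0.16 (TMM, filterByExpr, quasi-likelihood F test, EYFP and condition as terms). The threshold was a Benjamini-Hochberg adjusted p under 0.05 over all genes tested. Classes needed 10 cells in each library, except acinar-like cells, which were fitted whatever their number. Shares of cells were taken after thinning to 1000 UMIs and have no p-values, because they are scores over chosen genes. Intervals, and the limit that a count of 0 allows (3 counts), cover counting error only. Fits were tested on simulated data. Members were named where called, among the 10 with most UMIs, or always (Mki67, Top2a, Cdk1, Ccnb1, Pcna, Mcm5, Hmgb2 and Tubb5), with up to 4 genes of lowest p from each related list. Genes named to describe a share, a cell or a filter were chosen after their values were seen.

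Alternatives were DESeq2 1.42.0 or its size factors, no low-count filter, other depths, member sets and barcode filters, run as a block, no library block, clustering without the members, resolution 0.5 and each library left out. Leaving out shared barcodes, cells with 9 or more mitotic genes or the plasma-like cluster, a repeat of the thinning, and sums outside acinar-like and erythroid-like cells, were added after seeing the data. Same-numbered homeostasis libraries, numbered by run in the labels, deviated together, with correlations across genes of 0.186 to 0.509 in the 5 classes.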

Additional observations from a re-analysis of the deposited data

Results flagged for a closer look

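In 4 measures the difference between EYFP positive and EYFP negative libraries had one sign in run 3 (pancreatitis) and the other in both runs of homeostasis. These differences were not tested. The thinned share of endothelial-like cells with 2 or more of the 38 genes differed by 1.79 percentage points in run 3 and by -2.04 and -4.42 points in runs 1 and 2. Over all analysed cells Mki67 differed by 3.55 CPM in run 3 and by -18.3 and -13.6 CPM in runs 1 and 2. Top2a differed by 9.77 CPM against -13.6 and -20.4 CPM. Mcm5 differed by 1.90 CPM against -3.16 and -6.65 CPM.

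Pcna in EYFP positive run 1, at 50.9 CPM, stood apart from the other 3 homeostasis libraries, which lay at 47.4 to 47.8 CPM. It was 1 of 14 values tested this way over 4 libraries, and chance singles out about 1 in 20 such groups. Pcna had 286 UMIs in EYFP positive run 1 and 47 in EYFP positive run 2. The negative libraries of these runs had 131 and 323. The gap was not tested against counting error.

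A barcode of EYFP negative run 1 that was left out because 24.8% of its UMIs were mitochondrial held 14 of the 20 mitotic genes. Among barcodes with under 200 genes, also left out, 404 of 2977 held Ube2c, and 373 of these were among 2104 in EYFP negative run 3, whose median haemoglobin share was 97.6%. The 18 mitotic genes other than Ube2c and Nusap1 were in 47 of the 2977.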

How the results depend on the processing

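Differences in the thinned share of cells with 2 or more of the 38 genes are in percentage points, positive minus negative. Over all cells the EYFP difference of 0.997 became -0.976 without shared barcodes. In B or plasma-like cells the difference of 0.0981 became -0.605 at 500 UMIs, -2.87 at 2000 UMIs, -11.3 without thinning, -0.918 with the 18 S-phase genes only and -2.71 without shared barcodes. In endothelial-like cells -1.55 became 1.39 at 500 UMIs, 5.10 at 2000 UMIs, 20.8 without thinning and 0.883 in a repeat of the thinning. Leaving out 1 library at a time gave -1.51 to 3.15 for EYFP over all cells, -5.30 to -2.74 for pancreatitis, -3.10 to 3.45 in B or plasma-like, 4.16 to 11.8 in T or NK-like and -3.16 to 1.09 in endothelial-like cells. The pancreatitis difference stayed negative (-9.15 to -0.786) and the T or NK-like difference positive (1.59 to 17.96) under every alternative run, with each library left out included. The cause of each sign change was not tested.

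For B or plasma-like cells in pancreatitis, 14 called members became 22 without the low-count filter, 2 without shared barcodes, 0 without cells holding 9 or more mitotic genes, and 0 to 19 when 1 library was left out; DESeq2 called 10. The 133 called genes became 78 with DESeq2, 375 without the filter, 21 without shared barcodes, 72 without those cells and 1 to 359 with 1 library left out. For EYFP in this class 0 members became 9 without the filter and 0 to 1 with a library left out, and 0 genes became 57 and 0 to 15. In T or NK-like cells 0 members by EYFP became 6 without the filter and 0 to 2 with a library left out, and 0 by pancreatitis became 6 without the filter.

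Over all genes, the acinar-like pancreatitis count of 135 became 7 with DESeq2's size factors, 20 without the filter and 0 to 229 with 1 library left out. The T or NK-like counts of 2 by EYFP and 25 by pancreatitis became 4 with DESeq2 (EYFP), 80 and 154 without the filter, and 0 to 19 and 5 to 55 with 1 library left out. The endothelial-like counts of 5 and 4 became 8 with DESeq2 (pancreatitis), 39 and 51 without the filter, and 1 to 5 and 2 to 15. The ductal-like counts of 6 and 29 became 3 and 11 with DESeq2, 51 and 88 without the filter, 23 and 47 without shared barcodes, and 5 to 21 and 12 to 61.

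With run as a replicate block in place of condition, 3 members (Birc5, Mki67 and Ube2c) and 19 genes were called by EYFP in B or plasma-like, 10 genes in endothelial-like and 4 in T or NK-like cells. The block changed no other call of a member. For B or plasma-like cells with 2 or more mitotic genes against the others, 142 called genes became 4 without the library block (no replicate block), 330 without the filter, 73 with DESeq2, 8 without shared barcodes, 1 without cells with 9 or more mitotic genes and 15 to 372 with 1 library left out. Cells chosen by mitotic genes after thinning were too few per library to be fitted. None of the members passed the filter in acinar-like cells, so none could be tested there. Depth limits shares at 1000 UMIs: 0 of 118 erythroid-like cells allows 2.54%.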

Other observations

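B or plasma-like cells with 2 or more mitotic genes also differed from the other cells of their class in genes outside the cell cycle lists, by the same edgeR fit with Benjamini-Hochberg adjustment. The genes named here were chosen after their values were seen, and depth differed between the groups of cells as given above. Rgs13 and Gcsam, both known from germinal centre B cells, were higher by 5.08 ± 0.99 (SE, adjusted p = 0.00385) and 4.71 ± 0.89 on the log2 scale, in 4 and 3 of 4 libraries, and the transcription factor gene Mef2b was higher by 3.79 ± 0.76. Ighd, the constant region of IgD on naive B cells, was lower (-2.36 ± 0.47, adjusted p = 0.00509), as were Fcer2a (-2.28 ± 0.52), which encodes CD23, and Gpr183 (-1.92 ± 0.45), a receptor that guides B cell position, each higher in 0 of 4 libraries. Other called genes were the immunoglobulin genes Ighg3 and Igha, which were lower (-8.01 ± 0.51 and -7.22 ± 1.12), and Derl3 and Creld2, which were higher (1.91 ± 0.49 and 1.85 ± 0.50). The chosen cells were mixed and included cells of the plasma-like cluster. In EYFP negative run 2, 15 of 19 lay outside that cluster. Without the 9 cells that held 9 or more mitotic genes, 1 gene of 2166 tested was called in this comparison.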
